A study of Homo sapiens with 4 samples.

Results

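The genes described here encode the kinases that phosphorylate the GLI transcription factors, together with the G protein subunit that feeds them. They are the catalytic subunits PRKACA and PRKACB and the regulatory subunits PRKAR1A, PRKAR2A and PRKAR2B of protein kinase A (PKA), the G protein alpha subunit gene GNAS, the glycogen synthase kinase 3 genes GSK3A and GSK3B, and CSNK1A1, which encodes casein kinase 1 alpha. The 9 genes were chosen by name, as the kinases upstream of GLI and that G protein subunit, with earlier results of these data known. All 9 were found among the 20363 genes of the raw table, and all 9 were among the 14970 genes tested, those that reached 10 counts in 2 libraries or more. They were measured by RNA sequencing of DAOY, a human medulloblastoma line of the cerebellum, in 4 libraries with 1 library per condition and no replicate. ZNF521 cells overexpressed ZNF521, a zinc finger co-factor of transcription, and CTL cells were their controls, and each kind was treated with SAG, an agonist of the Hedgehog receptor component SMO, or with its solvent DMSO. The groups are thus ZNF521 cells with SAG, ZNF521 cells with DMSO, CTL cells with SAG and CTL cells with DMSO. In the study's methods, the lentiviral vector carried ZNF521 together with EGFP, transduced cells were sorted to over 90% EGFP-positive, and SAG was given for 48 h after 24 h of starvation. The deposited description calls the controls WT, whereas the methods name an empty vector, and with WT controls the effect of ZNF521 and that of transduction cannot be told apart. The dose of SAG given to the sequenced cells is not stated in the sources used here.

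As background, PKA is held inactive as a complex of regulatory and catalytic subunits. Cyclic AMP, made by adenylyl cyclases that the GNAS product Gs alpha stimulates, binds the regulatory subunits and frees the catalytic ones. When Hedgehog signalling is off, PKA phosphorylates GLI2 and GLI3 and so primes them for GSK3 and casein kinase 1. The phosphorylated proteins are bound by the ubiquitin ligase subunit BTRC and cut to repressors or degraded, and SMO activity lowers this phosphorylation. In mice, loss of Gnas in the granule neuron lineage of the cerebellum leads to Hedgehog-driven medulloblastoma. PKA, GSK3 and casein kinase 1 are regulated largely as proteins, so that mRNA levels are not kinase activities.

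The labels and the libraries were checked first. Normalized counts are read counts divided by 1 size factor per library. ZNF521 itself had 2072 normalized counts in ZNF521 cells with SAG and 2013 in ZNF521 cells with DMSO, against 751.1 in CTL cells with SAG and 713.7 in CTL cells with DMSO. GLI1, the transcription factor that Hedgehog signalling induces, had 318.1 normalized counts in ZNF521 cells with SAG, against 44.2 in ZNF521 cells with DMSO, and 323.7 in CTL cells with SAG, against 75.4 in CTL cells with DMSO. ZNF521 followed the label of the cells, and GLI1 that of the treatment. With DMSO, GLI1 was lower in ZNF521 cells than in CTL cells. Its fitted log2 fold change for ZNF521 was -0.30 (adjusted p = 0.967 from the quasi-likelihood test of edgeR). By RT-qPCR, the study reported more GLI1 mRNA in DAOY cells with enforced ZNF521. Total counts ran from 12294833 to 16314685 per library. CTL cells with DMSO gave a library unlike the others. Its genes scattered about their 4-library means with an SD of 0.273 on the log2 scale, against 0.126 to 0.143 for the other libraries, over genes whose mean normalized count reached 200. The fits below are therefore also given without it. The tested factor is then the only term, so that the other factor is not balanced. CTL cells with DMSO were also the only cells with neither enforced ZNF521 nor SAG. With 1 library per condition, a trait of that library and one of that condition cannot be told apart. Of the granule lineage markers, ZIC1, ZIC2 and PAX6 had between 175.9 and 306.6 normalized counts, while ATOH1, which defines granule progenitors, was at 0.844 to 1.13, and BARHL1 was at 0 in 3 of the 4 libraries. ATOH1 and BARHL1, which the granule lineage expresses, were thus all but absent. Of 4 mesenchymal markers, all 4 were detected in every library, with a summed normalized count of 37233 in ZNF521 cells with SAG and 35757 with DMSO, and 39897 in CTL cells with SAG and 55052 with DMSO. Immune markers summed to 8.44 to 13.1, and those of neurons, glia, endothelium and epithelium each to between 27.1 and 167.7. In bulk RNA, fewer cells of a kind and less RNA per cell cannot be told apart.

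Promoter sequence is shown for the members whose windows held a full cyclic AMP response element or a GLI core, since these are the elements through which the pathways around the kinases act on genes. RefSeq promoter windows (hg38, 250 bases before each transcription start) were found for all 9 genes, 24 windows in all. The full element TGACGTCA, which binds CREB, was searched for on both strands and lay in 1 member, PRKAR1A, in 1 of its 5 windows. It lay in 1.63% of 34943 promoter windows. The site begins 49 bases upstream of the transcription start of that window and is shown, in capitals, within 30 bases of the plus strand at chr17:68512370-68512399.
PRKAR1A: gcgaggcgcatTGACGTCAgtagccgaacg
The letters ACCACCC, the core of the longer GLI motif GACCACCCA, lay in 1 member, GNAS, in 1 of its 6 windows, and in 4.15% of all windows. The start of that window was not assigned to Gs alpha or to another product of the locus. All 250 bases of the window lie in annotated exons, of GNAS or of a gene overlapping or near it. The letters begin 200 bases upstream of that start and are shown, in capitals, within 30 bases of the plus strand at chr20:58841409-58841438.
GNAS: tctagagactgACCACCCgggagggaagtc
The full GLI motif, which contains that core, was in 0 of the 24 windows and in 0.200% of all windows. The shorter response element TGACG, which is part of the full one, lay in 6 of the 9 members and in 10 of the 24 windows (41.7%), against 21.2% of all windows. Windows of 1 gene can overlap, so that they are not independent. A CCAAT box lay in 5 members and in 6 windows (25.0%), against 32.0% of all, and a GC box (GGGCGG) in all 9 members but in 10 windows (41.7%), against 42.5% of all. These matches are letters in a window and no measure of binding.

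The members spanned a wide range of expression. Per kilobase of their main transcript, GNAS stood at a mean of 11742 normalized counts over the 4 libraries. It ranked 30 among all genes by mean normalized count. CSNK1A1 followed at 581.8 normalized counts per kilobase, PRKAR1A at 507.5 and PRKACA at 422.7. GSK3A was at 288.4 and PRKAR2A at 286.4, PRKACB at 203.7, GSK3B at 188.6 and PRKAR2B, the lowest, at 119.5. GNAS and PRKAR2B stood clear of their neighbours in every library, while the ranges over the 4 libraries overlapped for CSNK1A1 and PRKAR1A, for PRKAR1A and PRKACA, for PRKACA and GSK3A, for GSK3A and PRKAR2A, and for PRKACB and GSK3B. These levels use the length of 1 canonical transcript per gene, which other isoforms would alter, and GNAS in particular has several first exons.

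**Figure D1:**
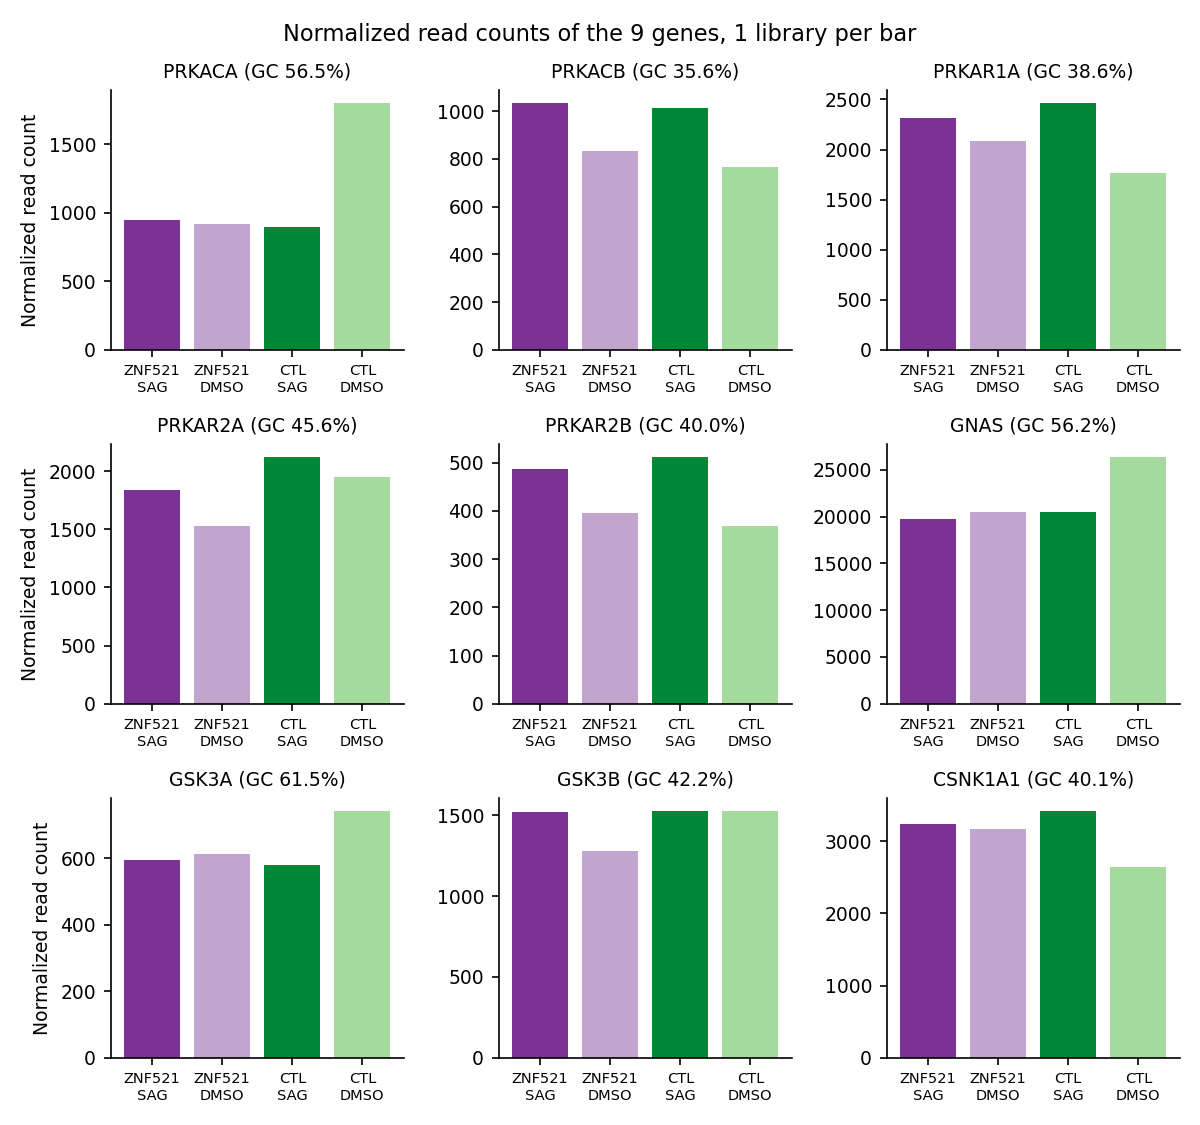
Normalized read counts (counts divided by the authors' size factor of each library) of the 9 genes, 1 bar per library, with the GC content of the transcript above each panel and a separate axis starting at 0 for each gene. PRKACA stood at 1801 in CTL cells with DMSO and between 894.3 and 945.8 in the other libraries, while CSNK1A1, PRKAR1A, PRKAR2B and PRKACB were lowest in CTL cells with DMSO.

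Among the catalytic subunits, PRKACA showed the largest range of the 9 genes. It encodes the main catalytic subunit of PKA in most tissues, and lies on the minus strand of chromosome 19 (hg38, 14091688 to 14118084). PRKACA had 945.8 normalized counts in ZNF521 cells with SAG and 915.8 with DMSO, and 894.3 in CTL cells with SAG and 1801 with DMSO. Its level in the CTL library with DMSO was 1.96-fold the mean of the other libraries, which differed among themselves by 1.06-fold. With DMSO, the log2 ratio of ZNF521 over CTL cells was -0.98 (exact 95% interval -1.09 to -0.86, for counting error only, as in all ratios of 2 libraries), rank 103 from the lowest of the 9161 genes whose mean normalized count reached 200. With SAG the same ratio was 0.08 (-0.05 to 0.21), which includes 0. Likewise, the log2 ratio of SAG over DMSO was 0.05 (-0.08 to 0.18) in ZNF521 cells and -1.01 (-1.13 to -0.89) in CTL cells. The difference of these SAG ratios, ZNF521 minus CTL cells, was 1.06 (0.88 to 1.23, counting error only), and 0.99 once the median of genes of like GC content was taken off. It equals the difference of the ZNF521 ratios, SAG minus DMSO. With 1 library per condition it could not be tested. The fitted log2 fold change was -0.46 for ZNF521 (SE 0.214, adjusted p = 0.912 from the quasi-likelihood test of edgeR) and -0.48 for SAG (SE 0.214, adjusted p = 0.420 from edgeR). Both values rest on 1 library. Without CTL cells with DMSO they were 0.06 and 0.0028. The summed mesenchymal markers were highest in the same library, and their part in the result was not tested. COL1A1, at 15912 normalized counts there against 4913 to 5316 elsewhere, COL1A2 and PDGFRB were highest in it. VIM was not, with 29381 there and 29673 in CTL cells with SAG.

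PRKACB encodes the other widely expressed catalytic subunit and lies on the plus strand of chromosome 1 (84078062 to 84238498). PRKACB had 1035 normalized counts in ZNF521 cells with SAG and 834.5 with DMSO, and 1014 in CTL cells with SAG and 768.0 with DMSO. Both SAG libraries lay above both DMSO libraries. The log2 ratio of SAG over DMSO was 0.31 in ZNF521 cells (0.18 to 0.44) and 0.40 in CTL cells (0.26 to 0.54), while the ratios of ZNF521 over CTL cells, 0.03 with SAG and 0.12 with DMSO, lay within counting error of 0. Genes of like GC content had a median of 0.14 for SAG in ZNF521 cells and 0.55 in CTL cells, so that PRKACB was 0.17 above them in ZNF521 cells and below them, at -0.15, in CTL cells. In the fit, its log2 fold change for SAG was 0.36 (SE 0.150, unadjusted p = 0.0342, adjusted p = 0.411 from edgeR). With offsets for GC content, which take off in each library the median deviation of genes in the same of 20 bins of GC content, it was 0.02 (SE 0.140). This gene has the lowest GC content of the 9, at 35.6%.

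The make-up of the catalytic counts differed most in CTL cells with DMSO. PRKACB held 52.3% of the reads of both genes in ZNF521 cells with SAG (Wilson 95% interval 50.2 to 54.3) and 47.7% with DMSO (45.3 to 50.1), and 53.1% in CTL cells with SAG (50.8 to 55.5) and 29.9% with DMSO (28.1 to 31.7). In CTL cells with DMSO PRKACA held most of the reads, and the share of PRKACB in ZNF521 cells with DMSO also lay below those in both SAG libraries, with intervals that did not overlap. Reads per length gave PRKACB 39.7%, 35.4%, 40.5% and 20.4% in the same order. Such intervals cover counting error only. The transcripts differ in GC content, with 35.6% for PRKACB and 56.5% for PRKACA. Against genes of like GC content, the log2 ratios of SAG over DMSO in ZNF521 cells were 0.17 for PRKACB and 0.14 for PRKACA. In CTL cells they were -0.15 and -0.85.

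Of the regulatory subunits among the 9 genes, PRKAR1A was highest in reads per length. It encodes the type I alpha subunit, whose inactivating mutations cause Carney complex, and lies on the plus strand of chromosome 17 (68511780 to 68551319). PRKAR1A, whose promoter window holds the response element shown above, had 2314 normalized counts in ZNF521 cells with SAG and 2087 with DMSO, and 2466 in CTL cells with SAG and 1767 with DMSO. The SAG libraries lay above the DMSO libraries, by a log2 ratio of 0.15 in ZNF521 cells (0.07 to 0.23) and of 0.48 in CTL cells (0.39 to 0.57). ZNF521 over CTL cells was -0.09 with SAG (-0.17 to -0.01) and 0.24 with DMSO (0.15 to 0.33), opposite in sign. Genes of like GC content had a median of 0.24 with DMSO as well. Its fitted log2 fold change for SAG was 0.31 (SE 0.151, unadjusted p = 0.0575, adjusted p = 0.449 from edgeR), and 0.07 with GC offsets (SE 0.132).

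PRKAR2A encodes the type II alpha subunit, which anchoring proteins tether, and lies on the minus strand of chromosome 3 (48744597 to 48847874). PRKAR2A had 1838 normalized counts in ZNF521 cells with SAG and 1530 with DMSO, and 2123 in CTL cells with SAG and 1947 with DMSO. Both ZNF521 libraries were below both CTL libraries. The log2 ratio of ZNF521 over CTL cells was -0.21 with SAG (-0.30 to -0.12) and -0.35 with DMSO (-0.45 to -0.25), and its rank from the lowest of 9161 genes was 517 with SAG and 1093 with DMSO. Genes of like GC content had medians of 0.0030 and 0.02 in these pairs. PRKAR2A and GNAS were the members whose ZNF521 ratios lay beyond counting error on the same side in both treatments, and that of PRKAR2A was the larger one with SAG. Its log2 fold change in the fit for ZNF521 was -0.29 (SE 0.145, unadjusted p = 0.0678, adjusted p = 0.925 from edgeR). With GC offsets it was -0.28, without CTL cells with DMSO -0.33, and without ZNF521 cells with DMSO -0.15. The fits with a library left out hold no term for treatment. The value of -0.33 thus sets both ZNF521 libraries against CTL cells with SAG alone. The lncRNA PRKAR2A-AS1 overlaps 303 exonic bases of PRKAR2A on the other strand, but it held only 15 to 29 counts per library.

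PRKAR2B encodes the type II beta subunit and lies on the plus strand of chromosome 7 (107044705 to 107161811). PRKAR2B had 487.6 normalized counts in ZNF521 cells with SAG and 395.1 with DMSO, and 512.0 in CTL cells with SAG and 368.9 with DMSO. As with PRKACB, the SAG libraries were the higher ones, and ZNF521 and CTL cells of 1 treatment did not differ beyond counting error. The log2 ratio of SAG over DMSO was 0.30 in ZNF521 cells (0.11 to 0.49) and 0.47 in CTL cells (0.27 to 0.68). Against genes of like GC content these ratios were 0.17 and 0.13. For SAG the fitted log2 fold change was 0.39 (SE 0.160, unadjusted p = 0.0309, adjusted p = 0.405 from edgeR), the highest of the 9, and 0.17 with GC offsets (SE 0.137).

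Within the regulatory subunits, PRKAR1A held 49.9% of the reads in ZNF521 cells with SAG and 52.0% with DMSO, and 48.3% in CTL cells with SAG and 43.3% with DMSO, and PRKAR2A held 39.6%, 38.1%, 41.6% and 47.7% in the same order. PRKAR2B stayed between 9.03% and 10.5%. These are shares of the reads of PRKAR1A, PRKAR2A and PRKAR2B alone. PRKAR1B, a further regulatory subunit, is left out of these shares and of the sums below. Its mean of 564.2 normalized counts was above the 440.9 of PRKAR2B. PRKX, at a mean of 462.9, is likewise left out of the catalytic sum. Summed per kilobase, regulatory over catalytic subunits stood at 1.65 in ZNF521 cells with SAG and 1.58 with DMSO, and 1.87 in CTL cells with SAG and 0.971 with DMSO. The catalytic sum was 582.0, 526.0, 558.1 and 839.8 normalized counts per kilobase in that order, and the regulatory sum 959.4, 833.5, 1046 and 815.4. The library of low balance, CTL cells with DMSO, had the highest catalytic sum, while its regulatory sum was close to that of ZNF521 cells with DMSO.

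**Figure D2:**
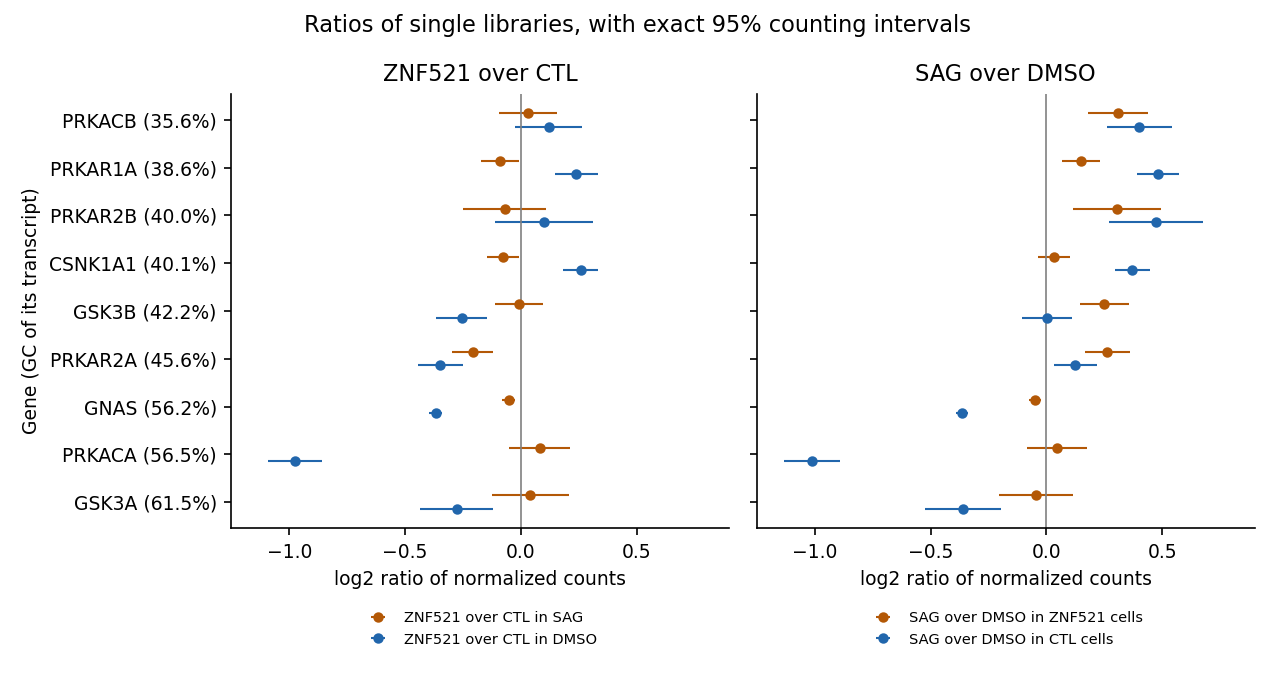
Log2 ratios of normalized counts between single libraries for the 9 genes, ordered by the GC content of their transcripts, with ZNF521 over CTL cells on the left (orange with SAG, blue with DMSO) and SAG over DMSO on the right (orange in ZNF521 cells, blue in CTL cells). Bars are exact 95% counting intervals. PRKACA lay at 0.08 for ZNF521 with SAG and 0.05 for SAG in ZNF521 cells, and at -0.98 and -1.01 in the pairs that use CTL cells with DMSO.

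GNAS, which encodes Gs alpha and, from other first exons, several imprinted products, lies on the plus strand of chromosome 20 (58839718 to 58911192). GNAS had 19761 normalized counts in ZNF521 cells with SAG and 20442 with DMSO, and 20492 in CTL cells with SAG and 26385 with DMSO. Like PRKACA it was high in CTL cells with DMSO, 1.30-fold the mean of the other libraries, which spanned 1.04-fold. Between kinds of cells, the log2 ratio of ZNF521 over CTL was -0.05 with SAG (-0.08 to -0.02) and -0.37 with DMSO (-0.39 to -0.34). Its depth makes these intervals narrow, and they hold no variation between cultures. That of SAG over DMSO was -0.05 in ZNF521 cells (-0.08 to -0.02) and -0.36 in CTL cells (-0.39 to -0.34). The fitted log2 fold changes of -0.22 for ZNF521 (adjusted p = 0.978 from edgeR) and -0.21 for SAG (adjusted p = 0.680 from edgeR) became -0.02 and -0.03 without that library. GNAS-AS1 shares 1127 exonic bases on the other strand and held 24 to 41 counts. Per-gene counts do not separate Gs alpha from the other products of the locus.

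GSK3A and GSK3B encode the paralogous kinases that phosphorylate GLI after PKA has primed it, and beta-catenin in the Wnt pathway. GSK3A lies on the minus strand of chromosome 19 (42226225 to 42242625) and has the highest GC content of the 9, at 61.5%. GSK3A had 594.8 normalized counts in ZNF521 cells with SAG and 613.3 with DMSO, and 578.5 in CTL cells with SAG and 742.8 with DMSO. Here too CTL cells with DMSO were the highest, and the other libraries spanned 1.06-fold. Fitted log2 fold changes were -0.13 for ZNF521 (SE 0.160) and -0.20 for SAG (SE 0.160), with GC offsets -0.06 and 0.0032, and without CTL cells with DMSO 0.07 and -0.07. ZNF526 overlaps GSK3A by 197 exonic bases on the other strand and held 260 to 401 counts. The strand setting of the counting is not stated in the sources used here.

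GSK3B lies on the minus strand of chromosome 3 (119821321 to 120094994). GSK3B had 1517 normalized counts in ZNF521 cells with SAG and 1276 with DMSO, and 1527 in CTL cells with SAG and 1523 with DMSO. The ZNF521 library with DMSO was the low one, and the others lay close together. Its log2 ratio of SAG over DMSO was 0.25 in ZNF521 cells (0.14 to 0.36) and 0.0038 in CTL cells (-0.10 to 0.11). The difference of these ratios, ZNF521 minus CTL cells, was 0.25 (0.10 to 0.39, counting error only) and could not be tested. The fitted log2 fold change was -0.14 for ZNF521 (SE 0.149) and 0.13 for SAG (SE 0.149), and -0.01 for each without ZNF521 cells with DMSO. GSK3B held 71.8% of the reads of both paralogs in ZNF521 cells with SAG (70.0 to 73.6) and 67.5% in ZNF521 cells with DMSO (65.4 to 69.6), and 72.5% in CTL cells with SAG (70.5 to 74.5) and 67.2% in CTL cells with DMSO (65.2 to 69.1). In both kinds of cells the share of GSK3B was the higher one with SAG, beyond counting error. Per length it held 41.9%, 37.1%, 42.8% and 36.7% in that order, so that GSK3A was the larger of the pair. Their transcripts differ in GC content, with 42.2% for GSK3B and 61.5% for GSK3A, and against genes of like GC content the log2 ratios of SAG over DMSO were 0.14 for GSK3B and 0.10 for GSK3A in ZNF521 cells, and -0.24 and -0.16 in CTL cells. Once GC content was taken off, GSK3B thus lay slightly above GSK3A in ZNF521 cells and below it in CTL cells.

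CSNK1A1, which encodes the alpha isoform of casein kinase 1, lies on the minus strand of chromosome 5 (149492982 to 149551471). CSNK1A1 had 3240 normalized counts in ZNF521 cells with SAG and 3166 with DMSO, and 3421 in CTL cells with SAG and 2647 with DMSO. The CTL library with DMSO was the lowest, as it was for PRKAR1A, PRKACB and PRKAR2B. Its log2 ratio of SAG over DMSO was 0.03 in ZNF521 cells (-0.04 to 0.10) and 0.37 in CTL cells (0.29 to 0.45), where genes of like GC content had a median of 0.34. ZNF521 over CTL cells was -0.08 with SAG (-0.15 to -0.0096) and 0.26 with DMSO (0.18 to 0.33). The fitted log2 fold change was 0.08 for ZNF521 (SE 0.154) and 0.20 for SAG (SE 0.154), with GC offsets 0.00036 and -0.01, and without CTL cells with DMSO -0.09 and 0.07. GENCODE places an unnamed lncRNA over 4194 exonic bases of CSNK1A1 on the same strand, where reads cannot be assigned to 1 of them. It also places same-strand genes over 479 and 93 exonic bases of GSK3A, 546 of PRKAR1A and 153 of PRKACA, with the same limit. None of these overlapping genes is in the raw table.

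In all pairs but ZNF521 over CTL cells with SAG, members of low GC content had the higher ratios. For SAG over DMSO, Pearson's r between GC content and log2 ratio over the 9 members was -0.76 in ZNF521 cells and -0.86 in CTL cells (Spearman's rho -0.68 and -0.88). Over 8968 genes it was -0.62 and -0.64. For ZNF521 over CTL cells it was 0.37 with SAG and -0.74 with DMSO, against -0.10 and -0.43 over all genes. These are descriptions across genes that share the same libraries, and genes are not independent replicates. The 4 members at or below 40.1% GC, PRKACB, PRKAR1A, PRKAR2B and CSNK1A1, were those with both SAG libraries above both DMSO libraries, and the 3 above 56%, GNAS, PRKACA and GSK3A, were those with SAG ratios below 0 in CTL cells. Taking the median of the GC bin off the SAG ratio in CTL cells left 8 of the 9 members between -0.24 and 0.13, and PRKACA at -0.85. PRKACA was therefore the member farthest from genes of its own GC content, in the pairs that hold CTL cells with DMSO. What sets the relation with GC content, library preparation or the cells, was not tested.

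**Figure D3:**
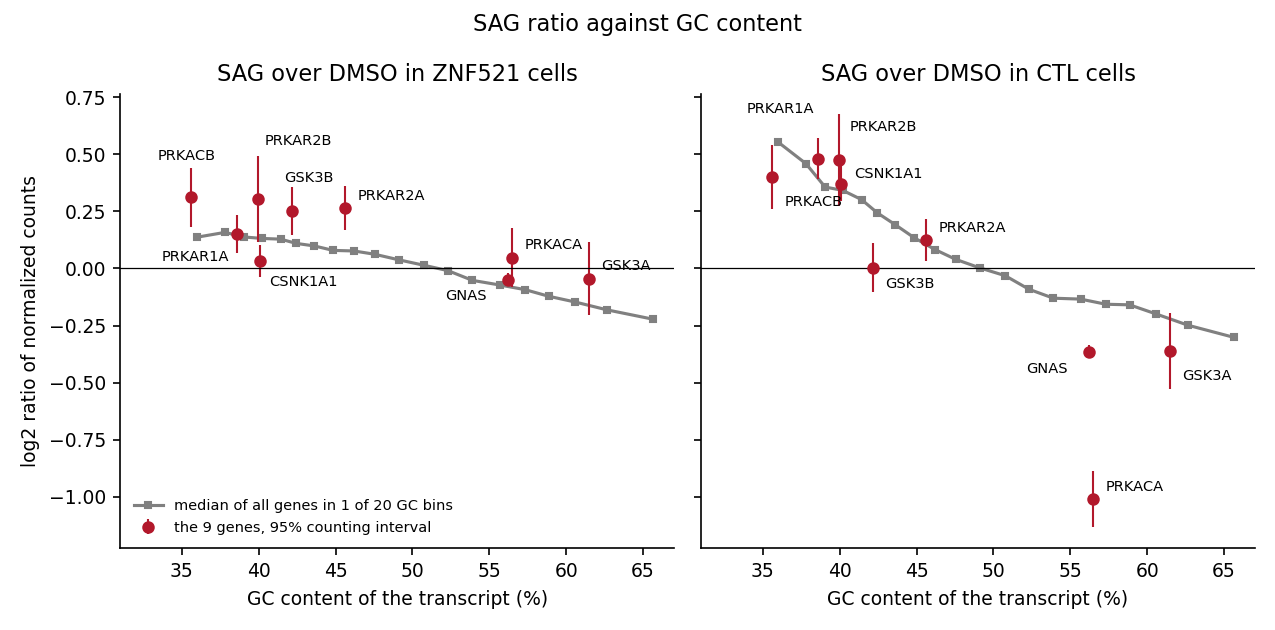
Log2 ratio of normalized counts, SAG over DMSO, against the GC content of the transcript (%), in ZNF521 cells (left) and CTL cells (right). Red points are the 9 genes with exact 95% counting intervals and grey squares the medians of all genes whose mean normalized count reached 200, in 20 bins of GC content. PRKACA lay at -1.01 in CTL cells, where genes of its bin had a median of -0.16.

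No member passed an adjusted p of 0.05 in either comparison by the quasi-likelihood test of edgeR, which fitted ZNF521 and SAG as additive terms over the 4 libraries with 1 residual degree of freedom. In the ZNF521 comparison this was 0 of 9 members against 0.00668% of the genes tested, which is 1 gene, ZNF521 itself. By the study's threshold, an unadjusted p of 0.05, 0 members were higher, against 2.36% of genes, and 0 were lower, against 3.11%. The study set this threshold on a paired t test, after a filter on fold change from each gene's median. That filter was not applied here, so that the genes called are not those of the study. With RLE factors, and likewise with no filter on low counts, 1 member, PRKACA, was lower at that threshold (unadjusted p = 0.0479 and 0.00771 from edgeR, and 0.0504 in the fit above). The median log2 fold change of the 9 members was -0.13, against -0.0034 over all genes. In the SAG comparison 0 of 9 members passed the adjusted threshold, against 0.0401% of genes. At the unadjusted threshold, PRKACB and PRKAR2B were higher, against 6.21% of genes, and PRKACA was lower, against 5.12%. No test was run of these counts against those shares. The members' median for SAG was 0.19, against 0.00055 over all genes. At that threshold DESeq2 called 0 members in either comparison, and limma 2 higher and 1 lower for SAG and 0 for ZNF521. An exact permutation test of a single gene has only 6 arrangements of 2 libraries against 2, and its smallest two-sided p is 0.333.

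Removing the GC trend and leaving out libraries altered these counts. With offsets for GC content, 0 members passed the unadjusted threshold for ZNF521, against 4.94% of genes, and 0 for SAG, against 4.42%, and the median of the members for SAG was 0.0032. Without CTL cells with DMSO and with the tested factor as the only term, 5 members were higher with SAG at the unadjusted threshold, against 7.56% of genes. They were PRKAR2A at 0.36, PRKAR2B at 0.33, PRKACB at 0.29, GSK3B at 0.25 and PRKAR1A at 0.19, and none passed the adjusted threshold (adjusted p of 0.126 to 0.301 from edgeR). In that fit both SAG libraries are set against 1 DMSO library, of ZNF521 cells, and GC content was not accounted for. For ZNF521 the same omission left PRKAR2A as the 1 member that was lower, against 1.59% of genes. Omitting ZNF521 cells with DMSO leaves CTL cells with DMSO as the only DMSO library, and 7 of 9 members, all but PRKAR2A and GSK3B, then passed the adjusted threshold for SAG, against 30.5% of all genes. Omitting CTL cells with SAG leaves it as the only CTL library, and PRKACA and GNAS then passed for ZNF521, against 15.8%. Such fits take the lone library to vary like the others.

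**Figure D4:**
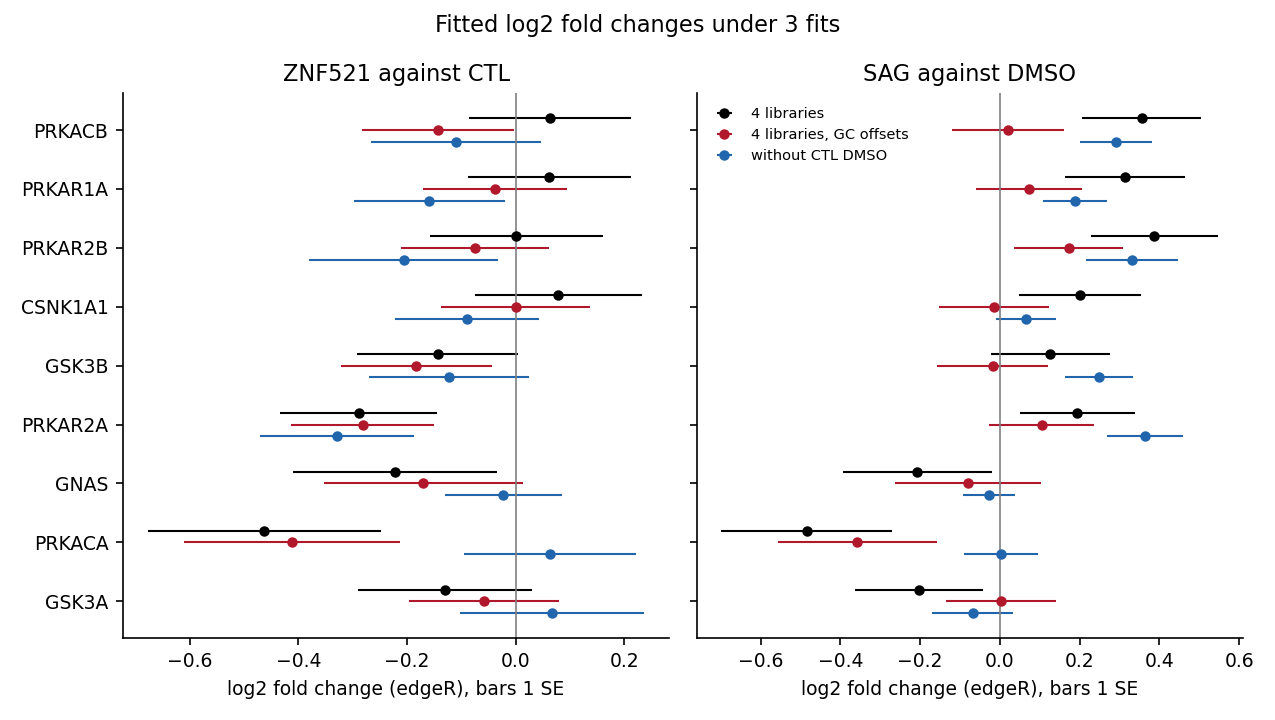
Log2 fold changes from edgeR for ZNF521 against CTL cells (left) and SAG against DMSO (right), with bars of 1 standard error. Black is the fit of all 4 libraries, red the same with offsets for GC content, and blue the fit without CTL cells with DMSO. PRKACA was at -0.46 and -0.48 in the fit of 4 libraries and at 0.06 and 0.0028 in that without CTL cells with DMSO.

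By the plain order of the libraries, 0 members were higher in both ZNF521 libraries than in both CTL libraries, against 13.3% of genes, and PRKAR2A, GNAS and GSK3B were lower, against 13.0%. For SAG, PRKACB, PRKAR1A, PRKAR2B and CSNK1A1 lay higher in both SAG libraries than in both DMSO libraries, against 25.4% of genes, and GSK3A lay lower, against 22.7%. The order gives no size: GNAS and GSK3B were placed in the ZNF521 list although their log2 ratios with SAG were only -0.05 and -0.0095.

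The 2 genes nearest in pattern to a member were sought among 9161 genes by the distance of centred log2 values over the 4 libraries, for the pair of members of widest range. Nearest to PRKACA was ANKRD52, an ankyrin repeat protein, with 772.8 normalized counts in ZNF521 cells with SAG and 742.9 with DMSO, and 735.3 in CTL cells with SAG and 1458 with DMSO (distance 0.0181). AHDC1, a protein with AT-hook motifs, followed at 420.2, 414.7, 406.0 and 808.2 (distance 0.0246). Nearest to PRKAR1A were FOPNL (distance 0.0116) and CAMK4, a calcium/calmodulin-dependent kinase (distance 0.0178). CAMK4 had 392.3 normalized counts in ZNF521 cells with SAG and 358.1 with DMSO, and 417.2 in CTL cells with SAG and 298.5 with DMSO. Over 4 values many genes lie close, and the distance is a description.

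Around the kinases, 104 genes of 11 lists were examined, of which 94 were tested. For SAG, 8 genes passed the unadjusted threshold upwards and 8 downwards, that is 8.51% each way, against the shares of 6.21% and 5.12% of all genes, and 1, GLI1, passed the adjusted threshold. For ZNF521, 4 were higher (4.26%) and 3 lower (3.19%), against 2.36% and 3.11% of all genes, and 0 passed the adjusted threshold. With GC offsets the counts were 2 higher and 6 lower for SAG, where 4.42% of all genes passed in either direction, and 2 and 3 for ZNF521, where 4.94% did.

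Of the genes that set the level of cyclic AMP, 8 of 10 adenylyl cyclases were tested. For SAG their median log2 fold change was -0.16, against 0.00055 over all genes, and it was -0.04 with GC offsets and -0.0075 without CTL cells with DMSO. At the unadjusted threshold 2 of the 8 were lower, against 5.12% of all genes. ADCY6 had 687.6 normalized counts in ZNF521 cells with SAG and 855.1 with DMSO, and 649.6 in CTL cells with SAG and 919.8 with DMSO, a log2 fold change of -0.41 (SE 0.154, adjusted p = 0.391 from edgeR). Both SAG libraries of ADCY6 were below both DMSO libraries. ADCY5 was at -0.63 (SE 0.273, adjusted p = 0.419 from edgeR). With GC offsets ADCY6 was at -0.27 and ADCY5 at -0.45, and neither passed the unadjusted threshold (p of 0.0708 and 0.104 from edgeR). Without CTL cells with DMSO they were at -0.36 and -0.40. Of 15 tested phosphodiesterases, which break cyclic AMP down, 1 was higher with ZNF521, PDE7B, at 0.85 (SE 0.268, adjusted p = 0.812 from edgeR). PDE7B had 62.4 normalized counts in ZNF521 cells with SAG and 70.0 in ZNF521 cells with DMSO, against 32.7 in CTL cells with SAG and 40.2 in CTL cells with DMSO. For SAG 0 of the 15 passed the unadjusted threshold.

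The G protein list held 7 genes, all tested. GNAI1 and GNAI3, alpha subunits that inhibit adenylyl cyclase, were positive for SAG at 0.57 and 0.46 (adjusted p = 0.391 from edgeR for each), 0.24 and 0.16 with GC offsets, and 0.24 and 0.20 without CTL cells with DMSO. GNAI3 had 3838 normalized counts in ZNF521 cells with SAG and 3452 with DMSO, and 4126 in CTL cells with SAG and 2428 with DMSO. GNAO1, a further alpha subunit of the inhibitory class, was at -0.62 for ZNF521 (adjusted p = 0.907 from edgeR) and -0.66 for SAG (adjusted p = 0.397 from edgeR). It had 165.8 to 175.5 normalized counts in the other libraries and 411.1 in CTL cells with DMSO, without which it was at 0.08 and -0.02. Of 5 tested further PKA subunits and inhibitors, PKIB, an inhibitor peptide of PKA, was at -0.44 for ZNF521 (adjusted p = 0.910 from edgeR) and at 0.51 for SAG (adjusted p = 0.398 from edgeR). It stood at 180.5 in ZNF521 cells with SAG and 163.6 with DMSO, and 309.0 in CTL cells with SAG and 169.9 with DMSO, so that 1 library was high. With GC offsets PKIB was at -0.64 for ZNF521 and 0.17 for SAG (unadjusted p of 0.00215 and 0.319 from edgeR), and without CTL cells with DMSO at -0.84 and 0.55. Of 12 tested anchoring proteins, AKAP9, a scaffold of the centrosome and Golgi, was at 0.42 for ZNF521 (SE 0.152, adjusted p = 0.888 from edgeR), and at 0.27 with GC offsets. For SAG it was at 0.39 (adjusted p = 0.397 from edgeR), and at 0.09 with GC offsets. Without CTL cells with DMSO its values were 0.20 and 0.15.

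On the side of GSK3 and casein kinase 1, 7 GSK3 partners were tested and 2 were higher with SAG at the unadjusted threshold, against 6.21% of all genes. APC, the scaffold of the beta-catenin destruction complex, was at 0.49 (SE 0.153, adjusted p = 0.391 from edgeR), with 961.8 normalized counts in ZNF521 cells with SAG and 716.2 with DMSO, and 766.8 in CTL cells with SAG and 518.7 with DMSO. GSKIP, which binds GSK3 and PKA, was at 0.39 (adjusted p = 0.420 from edgeR). Both have transcripts of low GC content, 39.6% and 36.1%, and they were at 0.25 and 0.06 with GC offsets and at 0.27 and 0.11 without CTL cells with DMSO. For ZNF521 APC was at 0.38 (adjusted p = 0.893 from edgeR), 0.28 with GC offsets (unadjusted p = 0.0553 from edgeR) and 0.14 without CTL cells with DMSO. Of 5 other casein kinase 1 genes, 7 genes of the ligases that bind GLI and 10 subunits of the phosphatase PP2A, 0 passed the unadjusted threshold in either direction or comparison. With GC offsets, CUL3, a scaffold of ligases, was at -0.37 and PPP2R2A, a PP2A subunit, at -0.41 for SAG (unadjusted p of 0.0334 and 0.0416 from edgeR), where 4.42% of all genes passed. In the fit without offsets they were at -0.07 and -0.11, and without CTL cells with DMSO at 0.04 and 0.06.

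Downstream, GLI3 and the cyclic AMP response genes were examined. GLI3, the main GLI repressor, had 652.2 normalized counts in ZNF521 cells with SAG and 624.6 with DMSO, and 652.9 in CTL cells with SAG and 1349 with DMSO. As for PRKACA, 1 library was high. Its log2 fold change was -0.57 for ZNF521 (SE 0.222, adjusted p = 0.893 from edgeR) and -0.50 for SAG (SE 0.222, adjusted p = 0.425 from edgeR), and -0.03 and 0.06 without that library. Of 14 tested genes of the cyclic AMP and CREB response, 1 was higher with SAG at the unadjusted threshold, CREB1 itself at 0.35 (0.02 with GC offsets), against 6.21% of all genes, and 4 were lower, against 5.12%. NR4A1, an orphan nuclear receptor and early target of CREB, had 114.7 normalized counts in ZNF521 cells with SAG and 171.8 with DMSO, and 121.8 in CTL cells with SAG and 166.9 with DMSO. Its log2 fold change was -0.52 (SE 0.192, adjusted p = 0.391 from edgeR), -0.32 with GC offsets (unadjusted p = 0.0987 from edgeR) and -0.55 without CTL cells with DMSO. CRTC1, a co-activator of CREB, was at -0.55 and EGR1, an early growth response factor, at -0.66 (adjusted p = 0.391 from edgeR for each), and both were highest in CTL cells with DMSO, at 766.0 and 436.3 normalized counts. Without that library they were at -0.18 and -0.29. With GC offsets CRTC1 was at -0.35 and no longer passed that threshold (unadjusted p = 0.0684 from edgeR), while EGR1 was at -0.56 (unadjusted p = 0.0291 from edgeR). PCK1, the gluconeogenic enzyme that cyclic AMP induces in liver, was at 2.02 for ZNF521 (SE 0.290, adjusted p = 0.0815 from edgeR), with 59.9 normalized counts in ZNF521 cells with SAG and 135.8 in ZNF521 cells with DMSO, against 19.2 in CTL cells with SAG and 27.1 in CTL cells with DMSO. For SAG PCK1 was at -0.97 (SE 0.281, adjusted p = 0.391 from edgeR), and was below DMSO in both kinds of cells. Without CTL cells with DMSO it was at -1.71 for SAG. That fit sets both SAG libraries against ZNF521 cells with DMSO alone. The difference of PCK1 between kinds of cells thus enters the value.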

How the data were processed

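The 4 RNA libraries were read as paired 50 nt reads. STAR, version 2.7.0e in the submitters' processing notes, was used by the authors for alignment to hg38 and for gene counts, and they deposited raw counts of 20363 genes. The deposited signal values are these counts divided by 1 DESeq2 size factor per library, and 503 genes are missing from that table. Libraries were strand-specific, and the annotation and the strand setting of the counting are not given in the sources used here.

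Raw counts of genes that reached 10 counts in 2 or more libraries were fitted with edgeR 4.0.16 (R 4.3.3, TMM, quasi-likelihood test, additive terms for vector and treatment, 1 residual and 11.7 prior degrees of freedom), with Benjamini-Hochberg adjustment at 0.05 and, beside it, the study's unadjusted 0.05. Ratios of 2 libraries use the authors' normalized values with exact Clopper-Pearson intervals from the raw counts, and shares Wilson intervals. Both cover counting error only, since 1 library per condition holds no spread between cultures. They take reads as independent molecules, which reads need not be, so that they may be too narrow. Transcript length and GC content came from the canonical transcripts of GENCODE 44, matched by symbol for 97.2% of genes. GC offsets remove the median log2 deviation in 20 bins of GC content. Standard errors of the edgeR fits were derived as the absolute log2 fold change over the square root of the F statistic. Alternatives were RLE factors, library size alone, no filter, DESeq2 1.42.0, limma 3.58.1, a filter at a mean count of 50, no term for the other factor, GC offsets and each library left out. Labels do not say that libraries came from separate cultures.

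The members and lists were chosen with earlier results of these data known. Of each list, up to 4 genes with an unadjusted p of at most 0.05 and a mean normalized count of at least 50 were named. CREB1, CUL3 and PPP2R2A were chosen after their values were seen. RefSeq promoter windows (hg38) were searched for exact motif letters.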

Additional observations from a re-analysis of the deposited data

Results flagged for a closer look

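PRKAR1A and CSNK1A1 had ratios of ZNF521 over CTL cells of opposite sign in the 2 treatments. The log2 ratio of PRKAR1A was -0.092 with SAG and 0.24 with DMSO, and that of CSNK1A1 was -0.079 with SAG and 0.26 with DMSO. The difference was not tested, since each ratio rests on 1 library per condition. The difference of the SAG ratios, ZNF521 minus CTL cells, was -0.33 for PRKAR1A (95% counting interval -0.45 to -0.21) and -0.34 for CSNK1A1 (-0.44 to -0.24), and with the medians of genes of like GC content taken off it was -0.11 and -0.13. Both ratios with DMSO rest on the CTL library with DMSO.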

How the results depend on the processing

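The direction and side of the adjusted threshold of all 18 fitted values of the 9 genes were kept under RLE factors, library size alone, no filter, a mean count of at least 50, DESeq2 and limma. With no term for the other factor, PRKAR2B for ZNF521 was -0.0045. With GC offsets, PRKACB, PRKAR1A and PRKAR2B for ZNF521 were -0.14, -0.039 and -0.074, and GSK3A, GSK3B and CSNK1A1 for SAG were 0.0032, -0.018 and -0.014, all opposite in sign to the fit without offsets. The cause was not tested.

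Leaving out each library in turn gave log2 fold changes for ZNF521 of -0.97 to 0.063 for PRKACA, -0.11 to 0.27 for PRKACB, -0.16 to 0.30 for PRKAR1A, -0.21 to 0.25 for PRKAR2B, -0.32 to 0.067 for GSK3A -0.090 to 0.26 for CSNK1A1, -0.43 to -0.15 for PRKAR2A, -0.41 to -0.023 for GNAS and -0.27 to -0.011 for GSK3B. For SAG it gave -0.98 to 0.0028 for PRKACA, -0.011 to 0.25 for GSK3B and 0.011 to 0.36 for PRKAR2A. Of ratios between libraries, PRKACB for SAG in CTL cells turned to -0.15 and GNAS for SAG in ZNF521 cells to 0.024 after the median of the GC bin was taken off. The same step turned 6 ratios that lay within counting error of 0. They were PRKACB (-0.30) and PRKAR2B (-0.090) for ZNF521 with DMSO, GSK3B for ZNF521 with SAG (0.0087), GSK3B for SAG in CTL cells (-0.24), and GSK3A (0.10) and CSNK1A1 (-0.098) for SAG in ZNF521 cells. TMM factors turned 1 such ratio, GSK3B for SAG in CTL cells, to -0.0058.

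Over all genes, the ZNF521 comparison called 1 gene at the adjusted threshold, 100 with no filter, 4 with GC offsets and 0 to 2340 with a library left out. At the unadjusted threshold it called 820, 1259 with no filter, 167 by DESeq2, 444 with no term for SAG and 120 to 4141 with a library left out. SAG called 6, 223 with no filter, 0 with no term for ZNF521 and 0 to 4513 with a library left out. Its unadjusted count was 1697, 424 by DESeq2, 661 with GC offsets and 305 to 6061 with a library left out. Fits that leave out a library hold 1 library in a group. The labels carry no replicate numbers, so that no block by replicate number was fitted, and the additive terms pair the libraries by treatment and by kind of cells. Each of the 9 genes had 367 counts or more in every library, and the spread between cultures is unknown.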
